A study of Homo sapiens with 16 samples.

Results

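The genes described are IRF1 and 9 interferon-responsive genes of low level, CXCL10, CXCL11, GBP1, GBP2, GBP3, APOL1, APOL2, APOL6 and TNFSF10. They are the 10 genes of 20802 measured whose symbol was on a list of names, and that list was written with earlier results of these data known. HEK293 cells, a human embryonic kidney line, carried either optimized or wild-type interferon receptors, and the design text asks how the spatial arrangement of the 2 receptor-bound Janus kinases bears on expression after type I or type III interferon. Each receptor version was given H11, IFNw or IFNL3, or was left untreated, with 2 libraries in each of the 8 groups, 16 in all. Per the labels, IFNw is interferon omega, a type I interferon, IFNL3 is interferon lambda 3, a type III interferon, and H11 is a variant of IFNL3 with higher affinity. The treated cells received 100 nM for 15 min, all samples carry the time 24 hr, and how these times relate is not stated. The untreated cells had no mock treatment named, and whether the optimized cells are 1 clone was not given in the sources used here.

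IRF1 is a transcription factor that interferons induce through a DNA element called GAS, and it in turn binds interferon-stimulated response elements (ISRE) upstream of genes such as the guanylate-binding proteins. Type I and type III interferons also activate ISGF3, a factor complex that contains IRF9 and binds ISRE directly, so an ISRE gene can be reached with or without IRF1. CXCL10 and CXCL11 are chemokines that attract T cells through the receptor CXCR3, GBP1 to GBP3 are large GTPases of intracellular defence, APOL1, APOL2 and APOL6 belong to the apolipoprotein L family, and TNFSF10 encodes the death ligand TRAIL.

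The letters upstream of these genes were searched for the GAS and ISRE elements named above. Promoters from the RefSeq annotation of GRCh38.p14 were found for 6 of the 10 genes, IRF1, CXCL10, CXCL11, GBP1, GBP3 and TNFSF10, and GBP2, APOL1, APOL2 and APOL6 are named only. The 250 bases before each start were searched on both strands for GAS as TTCNNNGAA and for ISRE as GAAA, any 2 bases and GAAA again, where N is any base. The GAS letters stand in 6.57% of 35114 promoter windows of that length, the ISRE letters in 3.02% and both in 0.31%. As in nearly all windows, none of the 6 genes held both. Capitals mark the match in the 4 stretches printed, which lie on the minus strand at chr5:132490859-132490927 for IRF1, chr4:76023679-76023747 for CXCL10, chr1:89065296-89065365 for GBP1 and chr3:172523578-172523647 for TNFSF10, and which read 5′ to 3′ along the gene.
IRF1: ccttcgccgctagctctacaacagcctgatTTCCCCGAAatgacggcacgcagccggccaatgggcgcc
CXCL10: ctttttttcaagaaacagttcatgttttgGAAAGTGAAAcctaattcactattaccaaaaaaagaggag
GBP1: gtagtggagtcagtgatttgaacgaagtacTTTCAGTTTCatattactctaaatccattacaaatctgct
TNFSF10: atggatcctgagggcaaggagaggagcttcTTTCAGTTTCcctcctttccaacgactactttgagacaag

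The IRF1 window held 1 GAS match, from 124 to 116 bases before the start, and no ISRE letters. CXCL10, GBP1 and TNFSF10 held 1 ISRE match each and no GAS letters, that of GBP1 and TNFSF10 on the opposite strand as TTTCAGTTTC. CXCL11 and GBP3 held GAS letters only. A match is a description of letters and not a bound site.

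**Figure D1:**
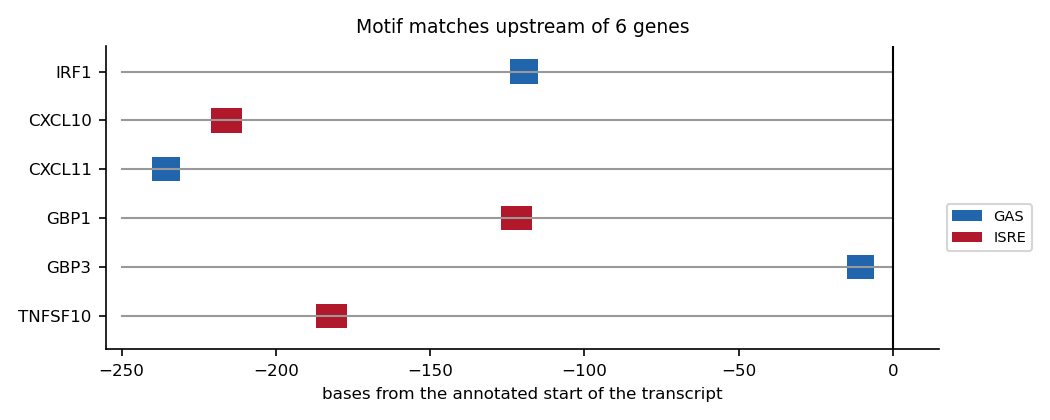
Positions of GAS (blue) and ISRE (red) letters within 250 bases before the annotated start of 6 genes, in bases from the start. IRF1, CXCL11 and GBP3 each hold 1 GAS match, and CXCL10, GBP1 and TNFSF10 each hold 1 ISRE match.

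The libraries held 5331203 to 9822088 reads, the lowest in optimized untreated replicate 2. A single target per gene was counted, so levels do not compare between genes, and values are CPM, read counts scaled to library size, after trimmed-mean (TMM) scaling. The 4 wild-type H11 and IFNL3 libraries stood apart: their TMM factors were 1.26 to 1.28, against 0.795 to 1.07 in the others, and the 50 most abundant genes held a smaller share of their reads (17.7% to 18.5%, elsewhere 23.7% to 28.7%). The 2 optimized untreated libraries correlated at 0.966 over genes (log2 CPM), against 0.983 to 0.986 in the other groups. Of the HEK293 markers VIM, INA, KRT8 and KRT18 were detected in all 16 libraries, and NEFL and NEFM reached at most 0.869 and 0.385 CPM. The 6 leukocyte markers summed to at most 0.782 CPM, with LYZ at 0 reads. Of the fibroblast markers COL1A1 gave 7.93 to 20.6 CPM, while DCN had 1 read and LUM none. The endothelial markers PECAM1 and CDH5 had 11 reads and 1 read in all.

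IRF1 rose with every ligand in both receptor versions, and its highest levels were not where GBP1 and APOL1 were highest. Its rises with IFNw in wild-type cells and with IFNL3 in optimized cells were the smallest and did not pass in every alternative fit. H11 and IFNL3 brought IRF1 in wild-type cells to means of 19.4 and 21.5 CPM, above every other group, while GBP1 averaged 0.753 and 0.807 CPM and APOL1 0.720 and 0.448 CPM there. In optimized cells the 3 ligands gave IRF1 levels of 7.87 to 9.65 CPM, and GBP1 averaged 6.19 CPM with H11 and 6.05 CPM with IFNw. TNFSF10 rose with all 3 ligands in both versions, and no difference between ligands or receptor versions in it passed the test.

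IRF1 was read in all 16 libraries, from 23 to 247 reads. In optimized cells it stood at 10.3 and 8.81 CPM with H11, at 10.6 and 8.72 CPM with IFNw and at 7.94 and 7.81 CPM with IFNL3, against 4.89 and 4.03 CPM in untreated cells. In wild-type cells it stood at 20.7 and 18.2 CPM with H11, at 8.07 and 8.93 CPM with IFNw and at 20.9 and 22.2 CPM with IFNL3, against 5.86 and 5.28 CPM in untreated cells. Every ligand library lay above both untreated libraries of its receptor version, and the 4 wild-type H11 and IFNL3 libraries lay above the other 12. In bulk libraries fewer responding cells and less RNA per cell cannot be told apart.

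**Figure D2:**
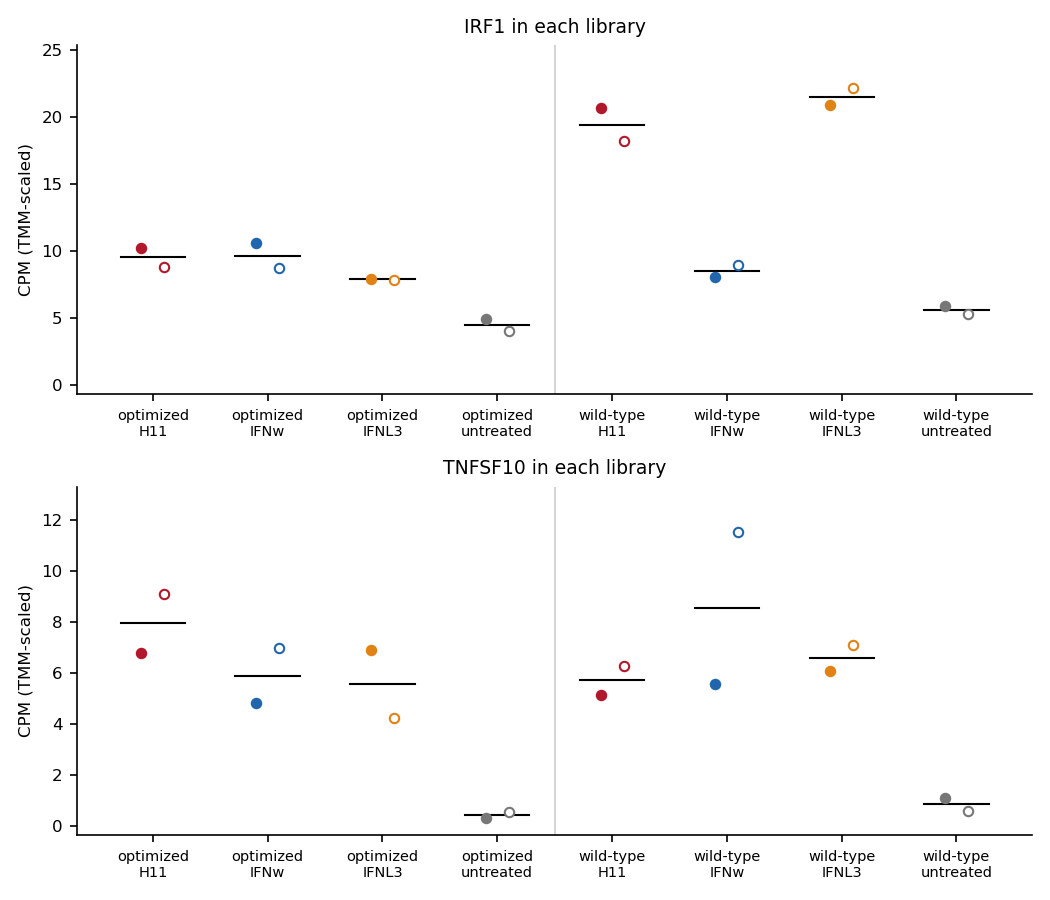
IRF1 and TNFSF10 in CPM (TMM-scaled) in each of 16 libraries by group. Filled points are replicate 1, open points replicate 2, and bars group means. IRF1 averages 19.4 and 21.5 CPM in wild-type cells given H11 or IFNL3, and TNFSF10 lies between 4.24 and 11.6 CPM in all ligand groups.

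Against untreated cells, the quasi-likelihood test of edgeR, with p-values adjusted after Benjamini and Hochberg over all tested genes, called IRF1 higher in all 6 comparisons. With H11 the log2 fold change was 1.08 ± 0.22 (SE) in optimized cells (adjusted p = 0.00125) and 1.80 ± 0.20 in wild-type cells (adjusted p = 2.43e-06). With IFNL3 it was 0.80 ± 0.22 in optimized cells (adjusted p = 0.0242) and 1.95 ± 0.20 in wild-type cells (adjusted p = 9.55e-07). With IFNw it was 1.09 ± 0.22 in optimized cells (adjusted p = 0.00108) and 0.61 ± 0.21 in wild-type cells (adjusted p = 0.0362). The wild-type IFNw call was the weakest. Omitting any 1 of its 4 libraries ended it (adjusted p = 0.0558 to 0.173), and it passed in 2 of 11 alternatives (adjusted p = 0.0278 to 0.319). The optimized IFNL3 call was lost without optimized IFNL3 replicate 1 or 2 or optimized untreated replicate 2 (adjusted p = 0.101, 0.0859 and 0.121). It was also lost when only the groups compared were fitted (0.79, adjusted p = 0.226, the highest of 11 alternatives from 0.0169).

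Between receptor versions IRF1 was lower in optimized cells with both type III ligands. With IFNL3 the optimized cells averaged 7.87 ± 0.095 CPM and the wild-type cells 21.5 ± 0.88 CPM (SD, n = 2 each), a log2 difference of -1.45 ± 0.19 (edgeR adjusted p = 1.94e-05). With H11 the optimized cells averaged 9.53 ± 1.02 CPM and the wild-type cells 19.4 ± 1.76 CPM (SD, n = 2 each), a log2 difference of -1.02 ± 0.19 (edgeR adjusted p = 0.000225). With IFNw, 9.65 ± 1.31 CPM in optimized and 8.50 ± 0.61 CPM in wild-type cells gave a difference of 0.18, with a 95% interval of -0.25 to 0.61. Untreated cells averaged 4.46 ± 0.61 CPM in the optimized and 5.57 ± 0.41 CPM in the wild-type version, a difference of -0.30 with an interval of -0.78 to 0.18. Neither of these passed the test (edgeR adjusted p = 1 and 0.789).

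The IFNL3 response itself, ligand over untreated, was smaller in optimized than in wild-type cells by 1.15 ± 0.30 on the log2 scale (fitted value -1.15, edgeR adjusted p = 0.0125). The difference was -0.98 without optimized untreated replicate 1 (adjusted p = 0.0593) and -1.08 without wild-type untreated replicate 2 (adjusted p = 0.0506), and it passed in 13 of 15 alternatives. For H11 the response difference of -0.73 ± 0.30 did not pass (adjusted p = 0.066, 95% interval -1.36 to -0.10). It passed with an offset for transcript length (-1.04, adjusted p = 0.0124) and with library totals in place of TMM factors (-1.37, adjusted p = 0.00099), within 0.00099 to 0.251 over 15 alternatives. For IFNw it was 0.48 ± 0.31 (adjusted p = 0.87, interval -0.17 to 1.13).

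Among ligands, IRF1 separated type III from type I in wild-type cells. Many genes did so there: 25.9% of all genes were called higher and 27.2% lower with IFNw than with IFNL3. The wild-type H11 and IFNL3 libraries are also those with the highest TMM factors. The part of this in the IRF1 result was not tested beyond the alternatives given. It was higher with H11 than with IFNw by 1.19 ± 0.19 on the log2 scale (edgeR adjusted p = 5.76e-05), and lower with IFNw than with IFNL3 (-1.34 ± 0.19, adjusted p = 1.66e-05). H11 and IFNL3 differed by -0.15, with an interval of -0.52 to 0.22. In optimized cells the intervals were -0.44 to 0.41 for H11 against IFNw, -0.15 to 0.71 for H11 against IFNL3 and -0.14 to 0.72 for IFNw against IFNL3, and none passed. In descending order the group means ran from wild-type IFNL3 through wild-type H11, optimized IFNw, optimized H11, wild-type IFNw, optimized IFNL3 and wild-type untreated to optimized untreated cells. The library ranges of optimized IFNw, optimized H11 and wild-type IFNw overlapped their neighbours in that order.

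The libraries differed in how reads spread over transcript length. Wild-type H11 and IFNL3 libraries gave more reads to longer transcripts (Spearman correlation with length, over genes, of the log2 CPM relative to the gene's mean over 16 libraries, 0.276 to 0.293), whereas the IFNw libraries of both versions and optimized H11 gave more to shorter ones (-0.296 to -0.314), and the other 6 lay at 0.055 to 0.110. With an offset for length in each library the wild-type log2 fold changes of IRF1 were 1.96 with H11, 0.44 with IFNw and 2.11 with IFNL3, and the optimized ones 0.91, 0.91 and 0.77. With library totals they were 2.07, 0.27 and 2.23 in wild-type cells and 0.70, 0.69 and 0.74 in optimized cells, and that scaling put the median of all genes at 0.246, -0.399 and 0.268 in wild-type and -0.402, -0.431 and -0.0736 in optimized cells.

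**Figure D3:**
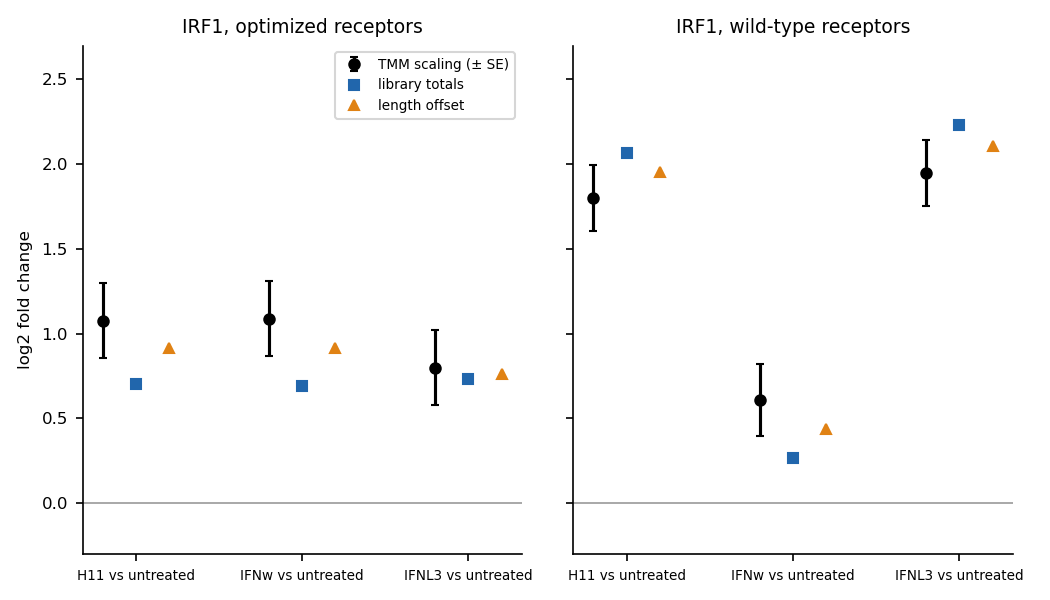
Log2 fold change of IRF1 against untreated cells for 3 ligands in optimized (left) and wild-type (right) cells, with TMM scaling (black, ± SE), library totals (blue) and a length offset (orange). The H11 and IFNL3 values are larger in wild-type cells in all 3, and wild-type IFNw lies at 0.61 with TMM scaling and at 0.27 with library totals.

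TNFSF10, the TRAIL death ligand, was read 3 to 10 times in each untreated library and 36 to 88 times in each ligand library. In optimized cells it stood at 6.79 and 9.09 CPM with H11, 4.82 and 6.98 CPM with IFNw and 6.92 and 4.24 CPM with IFNL3, against 0.305 and 0.525 CPM in untreated cells. In wild-type cells it stood at 5.13 and 6.28 CPM with H11, 5.57 and 11.6 CPM with IFNw and 6.08 and 7.09 CPM with IFNL3, against 1.09 and 0.598 CPM in untreated cells. All 12 ligand libraries lay above all 4 untreated ones. The log2 fold changes in optimized cells were 4.30 ± 0.55 with H11, 3.88 ± 0.57 with IFNw and 3.80 ± 0.56 with IFNL3 (edgeR adjusted p = 1.45e-05, 5.53e-05 and 0.000218). In wild-type cells they were 2.76 ± 0.46, 3.34 ± 0.45 and 2.96 ± 0.45 for the same ligands (adjusted p = 0.00016, 2.54e-05 and 7.53e-05). These 6 calls held in every alternative run. TNFSF10 passed the filter on read counts only through ligand libraries, which favours rises against untreated cells.

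Neighbouring ligand groups of TNFSF10 overlapped in the order of means, from 8.56 CPM in wild-type IFNw to 5.58 CPM in optimized IFNL3. The optimized minus wild-type differences were 0.47 with H11 (95% interval -0.25 to 1.20), -0.54 with IFNw (-1.28 to 0.21), -0.23 with IFNL3 (-0.96 to 0.49) and -1.07 in untreated cells (-2.68 to 0.53). None passed. The receptor versions' responses differed by 1.55 with H11 (interval -0.21 to 3.30), 0.54 with IFNw (-1.22 to 2.29) and 0.84 with IFNL3 (-0.92 to 2.60), which also did not pass.

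CXCL10 had 0 reads in all 4 untreated libraries, which allows up to 0.193 CPM in optimized and 0.156 CPM in wild-type cells if 3 reads in a group are taken as the limit. Limits and intervals of reads cover counting error only. In optimized cells it had 8 and 5 reads with H11, 14 and 10 with IFNw and 25 and 25 with IFNL3. In wild-type cells it had 0 and 11 reads with H11, 9 and 10 with IFNw and 7 and 4 with IFNL3. The optimized IFNL3 libraries were the highest of the 16, and the wild-type H11 reads all came from replicate 2.

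Against the untreated limit CXCL10 was 4.54-fold higher with H11, 8.02-fold with IFNw and 13.8-fold with IFNL3 in optimized cells. In wild-type cells it was 2.99-fold, 8.24-fold and 3.16-fold higher. Folds over this limit, here and below, leave out the counting error of the ligand group and are not lower bounds. All 6 passed edgeR's test, with adjusted p from 0.00443 in optimized IFNL3 to 0.0447 in wild-type H11. CXCL10, GBP1, APOL1 and APOL6 had no untreated reads and were tested only because of ligand libraries. The direction of their calls against untreated cells was thus fixed in advance, and those calls support nothing by themselves. The wild-type H11 call was lost without either untreated library and left no reads without H11 replicate 2 (adjusted p = 0.146, 0.157 and 1, within 0.00584 to 1 over 10 alternatives). The wild-type IFNL3 call was lost without any 1 of its 4 libraries (adjusted p = 0.06 to 0.147), and the optimized H11 call without optimized H11 replicate 1 or either optimized untreated library (adjusted p = 0.0944, 0.109 and 0.062, within 0.00407 to 0.109 over 10 alternatives).

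With IFNL3, CXCL10 averaged 2.67 ± 0.17 CPM in optimized cells and 0.492 ± 0.19 CPM in wild-type cells (SD, n = 2 each). That log2 difference of 2.40 ± 0.74 passed (edgeR adjusted p = 0.0202) but was lost without any 1 of the 4 libraries (adjusted p = 0.0657 to 0.141). The direction was opposite to that of IRF1, which was lower in the optimized IFNL3 cells. With H11 the versions held 13 and 11 reads and with IFNw 24 and 19 reads (optimized, wild-type), and their differences of 0.90 and 0.27 did not pass.

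CXCL11 was too rare to test. It had 10 and 4 reads in the optimized IFNw libraries and 2 and 2 reads in the wild-type IFNw libraries. In the other groups it had at most 3 reads, all of them in optimized cells. For optimized IFNw against untreated, 14 reads against 1 gave a ratio of 14.0 with an exact 95% counting interval of 2.14 to 594. The 2 CXCL11 libraries of optimized IFNw lay above both of wild-type IFNw, at a ratio of 3.34 with an interval of 1.05 to 13.95.

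**Figure D4:**
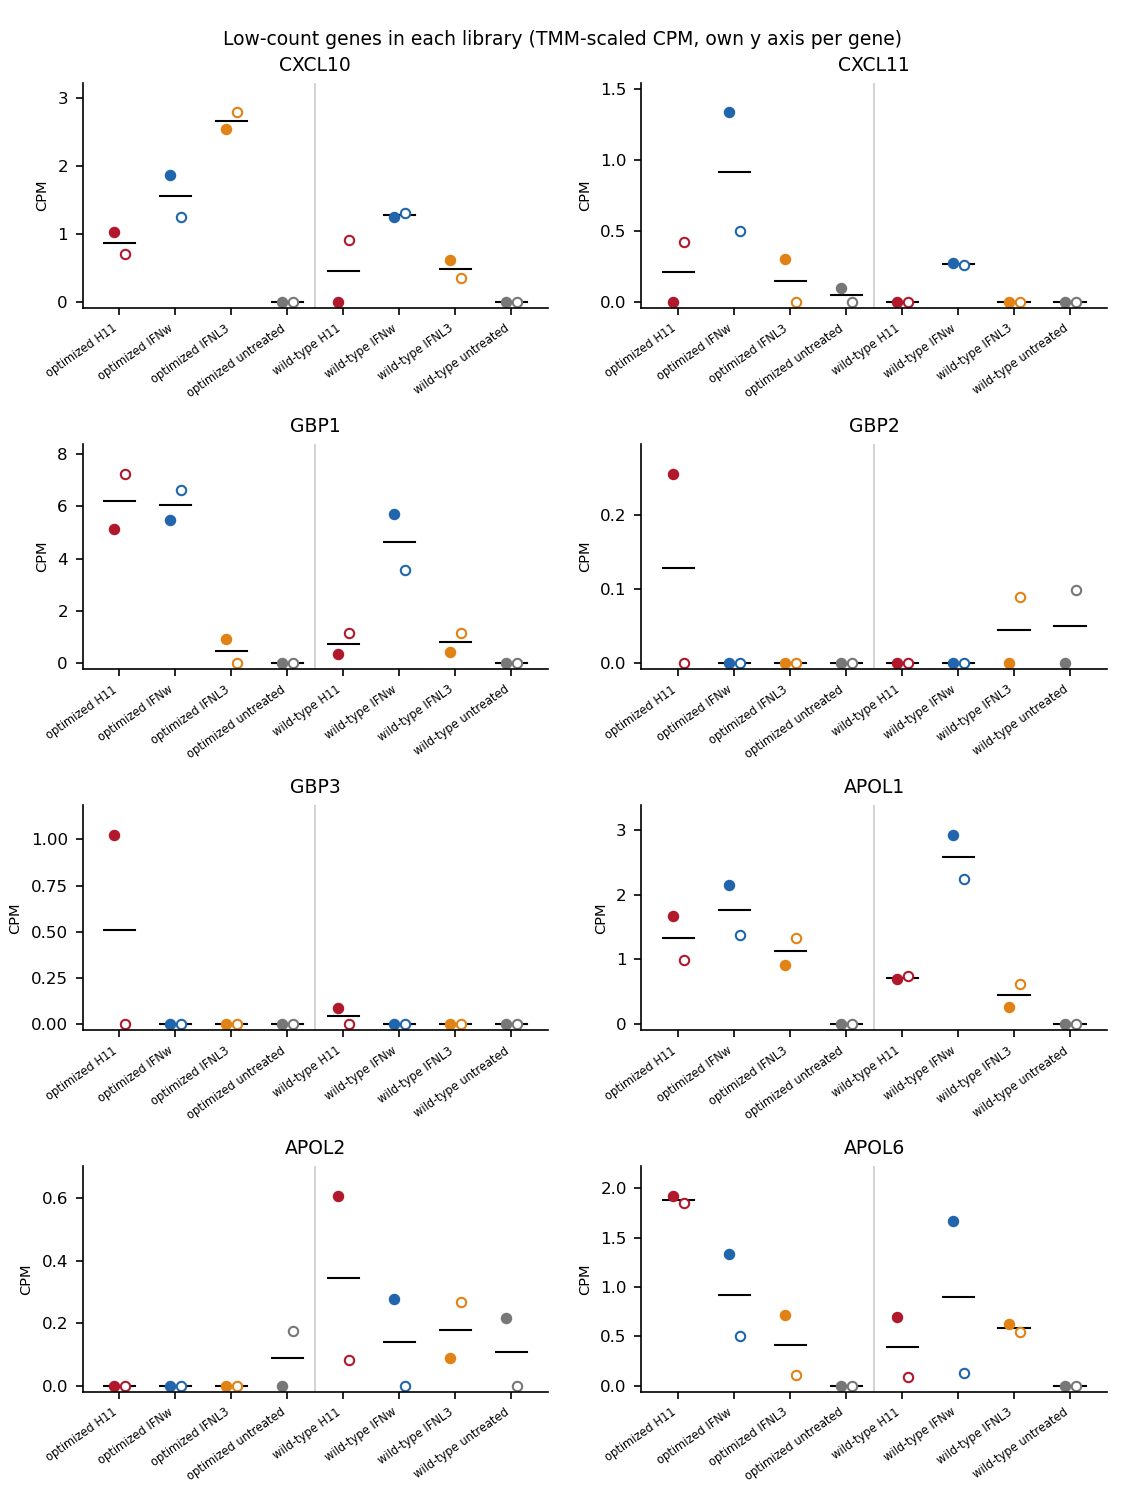
CPM (TMM-scaled) of 8 low-count genes in each of 16 libraries by group, each gene on its own y axis. Filled points are replicate 1, open points replicate 2, and bars group means. GBP1 is near 6 CPM with optimized H11 and IFNw and under 1.2 CPM in each wild-type H11 and IFNL3 library, and CXCL10 is highest in optimized IFNL3.

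GBP1 split the ligand groups into a high and a low set. It had 0 reads in all 4 untreated libraries. In optimized cells it had 40 and 51 reads with H11, 41 and 53 with IFNw and 9 and 0 with IFNL3. In wild-type cells it had 4 and 14 reads with H11, 41 and 27 with IFNw and 5 and 13 with IFNL3. The libraries of optimized H11 and of both IFNw groups, at 3.55 to 7.25 CPM, did not overlap the other ligand libraries, at 0 to 1.17 CPM. These 6 libraries are those with the negative length correlation and with TMM factors of 0.795 to 0.836, and the summed HEK293 markers were 374 to 464 CPM in them, against 506 to 609 CPM in the other 10. The part of these library properties in the GBP1 result was not tested beyond the alternatives given below.

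Against the untreated limit GBP1 was 31.8-fold higher with H11 and 31.4-fold with IFNw in optimized cells, and 29.5-fold higher with IFNw in wild-type cells (edgeR adjusted p = 0.00018, 0.000186 and 0.00025). The wild-type H11 and IFNL3 groups were 4.89-fold and 5.17-fold higher (adjusted p = 0.0215 and 0.0191). Both were lost without either wild-type untreated library and without replicate 2 of the ligand group (adjusted p up to 0.142 and 0.11, from 0.000244 and 0.000179 over 10 alternatives). Optimized IFNL3 was at least 2.48-fold higher from its 9 reads in replicate 1, and this did not pass (adjusted p = 0.144).

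With H11, GBP1 averaged 6.19 ± 1.50 CPM in optimized cells and 0.753 ± 0.57 CPM in wild-type cells (SD, n = 2 each), a log2 difference of 3.0 ± 0.65 (edgeR adjusted p = 0.00118). It passed in all 11 alternatives, from 2.38 to 4.09. IRF1 differed in the opposite direction in the same cells. With IFNw the difference was 0.39 (95% interval -0.78 to 1.56) and with IFNL3 it was -0.75 (-2.65 to 1.16), and neither passed.

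In optimized cells GBP1 was higher with H11 than with IFNL3 by 3.66 ± 0.72 on the log2 scale (edgeR adjusted p = 0.00308), and higher with IFNw than with IFNL3 by 3.63 ± 0.72 (adjusted p = 0.00291). Without optimized IFNL3 replicate 2, which had 0 reads, these were 2.73 and 2.70 (adjusted p = 0.0297 and 0.0281), with the spread of the lone IFNL3 library taken from the other groups. Without replicate 1 the remaining IFNL3 library had 0 reads, so no fold is given. H11 and IFNw differed by 0.03 (interval -1.11 to 1.17). In wild-type cells GBP1 was lower with H11 than with IFNw (-2.58 ± 0.66, adjusted p = 0.00412) and higher with IFNw than with IFNL3 (2.50 ± 0.66, adjusted p = 0.00517). The H11 call was lost without wild-type H11 replicate 1 (-1.98, adjusted p = 0.051) and the IFNL3 call without wild-type IFNL3 replicate 1 (1.97, adjusted p = 0.0599), within ranges over 11 alternatives of 1.47e-06 to 0.051 and 3.07e-06 to 0.0599. H11 and IFNL3 had 18 reads each in wild-type cells.

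GBP2 and GBP3, relatives of GBP1, were too rare to test. GBP2 had 4 reads in all, of which 2 were in optimized H11, 1 in wild-type IFNL3 and 1 in wild-type untreated cells. GBP3 had 8 reads in optimized H11 replicate 1 and 0 in replicate 2, and 1 read in wild-type H11. How the counting split reads between GBP1 and near relatives was not given in the sources used here, and the same holds for the APOL genes. The relatives GBP4 to GBP7 had 0 to 8 reads over all 16 libraries, APOL4 and APOL5 had 0, and APOL3 had 17.

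APOL1, a secreted and intracellular apolipoprotein known for killing trypanosomes, had 0 reads in all untreated libraries and reads in all 12 ligand libraries. In optimized cells it had 13 and 7 reads with H11, 16 and 11 with IFNw and 9 and 12 with IFNL3. In wild-type cells it had 8 and 9 reads with H11, 21 and 17 with IFNw and 3 and 7 with IFNL3. In CPM the wild-type IFNw libraries, at 2.92 and 2.23, were the highest and the wild-type IFNL3 libraries, at 0.268 and 0.628, the lowest of the ligand groups.

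Against the untreated limit APOL1 was 6.98-fold, 9.02-fold and 5.79-fold higher with H11, IFNw and IFNL3 in optimized cells (edgeR adjusted p = 0.00156, 0.000642 and 0.00707). In wild-type cells the folds over the limit were 4.62, 16.5 and 2.87 (adjusted p = 0.00382, 0.000119 and 0.0139). The wild-type IFNL3 call was lost without either untreated library or IFNL3 replicate 2 (adjusted p = 0.0643, 0.0727 and 0.0866, within 0.00798 to 0.0866 over 10 alternatives). In wild-type cells IFNw exceeded IFNL3 by 2.49 ± 0.59 on the log2 scale (adjusted p = 0.00235), which held in all 11 alternatives. H11 was lower than IFNw by a log2 difference of -1.82 ± 0.54 (adjusted p = 0.011). That call was lost without wild-type H11 replicate 1 or 2 or IFNw replicate 1 (adjusted p = 0.0681, 0.0586 and 0.073) and with library totals (-1.21, adjusted p = 0.0631), within 0.00611 to 0.073 over 11 alternatives. The optimized minus wild-type differences were 0.88 with H11 (95% interval -0.37 to 2.14), -0.55 with IFNw (-1.65 to 0.54) and 1.30 with IFNL3 (-0.06 to 2.65), and none passed.

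APOL6 had 0 reads in untreated cells. In optimized cells it had 15 and 13 reads with H11, 10 and 4 with IFNw and 7 and 1 with IFNL3. In wild-type cells it had 8 and 1 reads with H11, 12 and 1 with IFNw and 7 and 6 with IFNL3. The optimized H11 libraries, at 1.92 and 1.85 CPM, were above the other 14.

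Optimized H11, optimized IFNw, wild-type IFNw and wild-type IFNL3 stood 9.77-fold, 4.68-fold, 5.64-fold and 3.74-fold against the untreated limit. They passed the test (edgeR adjusted p = 0.00863, 0.0394, 0.032 and 0.0493). Optimized IFNL3 and wild-type H11, at least 2.21-fold and 2.45-fold higher, did not (adjusted p = 0.19 and 0.0979). Each of the calls that passed could be lost by leaving out 1 library. The optimized H11 call was lost without optimized untreated replicate 1 (adjusted p = 0.0518). The IFNw calls were lost without IFNw replicate 1 or either untreated library of the same version (adjusted p = 0.0901 to 0.18 in optimized and 0.115 to 0.429 in wild-type cells). The wild-type IFNL3 call was lost without any of its 4 libraries and with the length offset (adjusted p = 0.0783 to 0.168, and from 0.0125 over 10 alternatives). Between versions with H11, APOL6 averaged 1.89 ± 0.054 CPM in optimized and 0.389 ± 0.43 CPM in wild-type cells (SD, n = 2 each). The log2 difference of 2.26 ± 0.92 did not pass (edgeR adjusted p = 0.0508). APOL6 passed the filter on read counts only through its optimized H11 libraries, so this comparison supports nothing by itself.

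APOL2 had nearly all of its reads in wild-type cells. It had 0 reads in all 6 optimized ligand libraries and 0 and 1 in optimized untreated cells. Wild-type cells had 7 and 1 reads with H11, 2 and 0 with IFNw and 1 and 3 with IFNL3, against 2 and 0 in untreated cells. It was not tested, and the ratio of wild-type H11 to untreated reads was 3.26 with a counting interval of 0.651 to 31.5.

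Counted together, 6 of the 10 genes had enough reads to be tested, IRF1, CXCL10, GBP1, APOL1, APOL6 and TNFSF10. Apart from IRF1 they all passed the filter only through treated libraries. CXCL10, GBP1, APOL1 and APOL6 so had to differ, a rise of TNFSF10 was favoured, and these counts support nothing by themselves. With H11, all 6 tested genes rose in optimized cells (17.2% of all 12704 genes tested were called higher) and 5 of the 6 in wild-type cells (18.2% of genes). With IFNw, 6 rose in optimized cells (17.5% of genes) and 6 in wild-type cells (16.6%). With IFNL3, 4 rose in optimized cells (7.26%) and 6 in wild-type cells (18.7%). None fell in these 6 comparisons, but only IRF1 and TNFSF10 could have been called lower. The other tested genes had no untreated reads, and the rest were not tested.

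Between optimized and wild-type cells with H11, GBP1 was called higher and IRF1 lower (25.6% and 26.1% of genes were called higher and lower), and with IFNL3, CXCL10 was called higher and IRF1 lower (18.1% and 15.1%). With IFNw and in untreated cells none of the 10 was called, where edgeR called 0% of all genes and DESeq2 none, with 440 and 705 genes at an unadjusted p below 0.05. Of the response differences, which could be estimated only for IRF1 and TNFSF10 because the other 4 tested genes had no untreated reads, IRF1 was lower for IFNL3 (7.31% of genes lower). None was called for H11 (36.9% of genes called in either direction) or IFNw (0% of genes by edgeR and none by DESeq2, with 633 at an unadjusted p below 0.05).

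Among ligands in optimized cells GBP1 alone was called, higher with H11 than with IFNL3 (10.7% of genes higher) and higher with IFNw than with IFNL3 (11.5%). When only the groups compared were fitted, H11 against IFNL3 also called APOL6 higher (2.12, adjusted p = 0.0415) and CXCL10 lower (-1.59, adjusted p = 0.0363). In that fit APOL6 passed the filter on read counts only through H11 and CXCL10 only through IFNL3, so these calls support nothing by themselves. None was called for H11 against IFNw in optimized cells or for H11 against IFNL3 in wild-type cells, where edgeR called 0% of genes and DESeq2 none, with 279 and 158 at an unadjusted p below 0.05. In wild-type cells GBP1 and APOL1 were higher and IRF1 lower with IFNw than with IFNL3 (25.9% of genes higher, 27.2% lower). With H11 against IFNw, IRF1 was higher and GBP1 and APOL1 lower (26.6% higher, 25.7% lower).

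Set against IRF1, the levels of GBP1 and APOL1 did not follow a single line. Wild-type H11 and IFNL3 libraries had 18.2 to 22.2 CPM of IRF1 with 0.348 to 1.17 CPM of GBP1 and 0.268 to 0.744 CPM of APOL1. The optimized H11 and both IFNw groups had 8.07 to 10.6 CPM of IRF1 with 3.55 to 7.25 CPM of GBP1 and 0.995 to 2.92 CPM of APOL1. TNFSF10 was at 4.24 to 11.6 CPM in all these and in optimized IFNL3. As the libraries fall into separate clusters, no correlation is given for them.

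**Figure D5:**
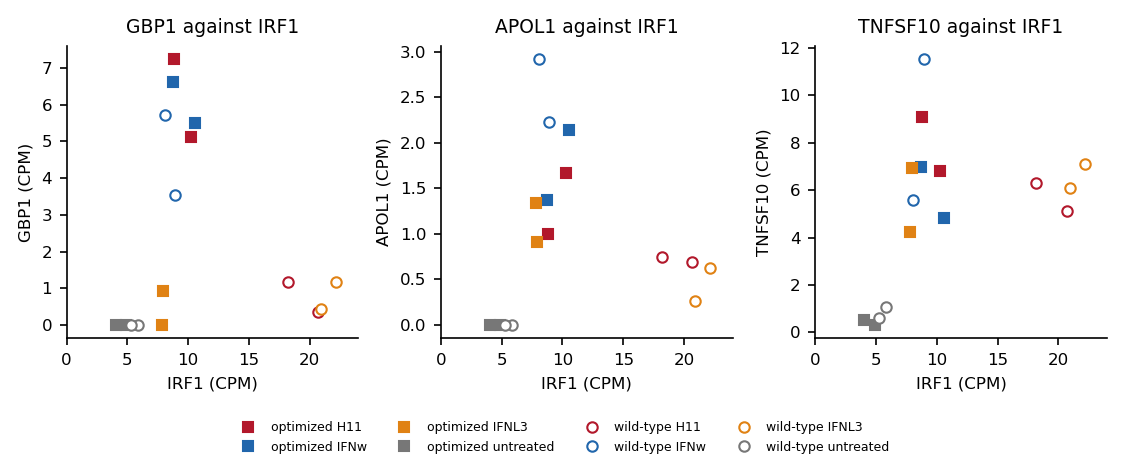
GBP1, APOL1 and TNFSF10 against IRF1 in CPM (TMM-scaled), 1 point per library, squares for optimized and circles for wild-type cells. The wild-type H11 and IFNL3 libraries lie at 18.2 to 22.2 CPM of IRF1 with GBP1 at or under 1.17 CPM, whereas TNFSF10 there lies at 5.13 to 7.09 CPM.

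The genes nearest to each tested gene by Pearson correlation of log2 CPM over the 16 libraries are given as a description, since the libraries share groups and depth. For IRF1 they were CSF1 (0.979), C6orf141, PILRB, WSB1 and RBCK1 (0.957). For TNFSF10 they were IRF9, IRF7, IFIT5, C19orf66 and TRIM22 (0.969 to 0.963). For APOL1 they were OASL, ISG15, PARP10, IFI6 and IFI44 (0.965 to 0.957), and for CXCL10 they were SP100, IFITM1, LGALS3BP, IFITM3 and HSPA8 (0.915 to 0.890). GBP1 was nearest to NQO1, C16orf59, FASTK, FDX1L and LYRM2 (0.946 to 0.935), and APOL6 to ZFP30, IKBIP, TRAIP, ZFAND2A and FAM118B (0.876 to 0.863).

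Genes known to answer to IRF1 or through GAS elements include immunoproteasome subunits and peptide transporters. Of 27 listed genes 17 were tested. Beside these and the following list counts stand the shares of all tested genes. With H11, IFNw and IFNL3, 17.2%, 17.5% and 7.26% of genes were called higher and 15.2%, 15.9% and 6.05% lower in optimized cells, and 18.2%, 16.6% and 18.7% higher and 20.6%, 14.8% and 21.1% lower in wild-type cells. In optimized cells 10 rose and 2 fell with H11, 11 rose and 1 fell with IFNw and 8 rose and 1 fell with IFNL3, with medians of 1.32, 1.61 and 1.34 on the log2 scale (medians over all genes -0.03, -0.04 and -0.01). In wild-type cells 6 rose with H11, 10 rose and 1 fell with IFNw and 8 rose with IFNL3, with medians of 0.77, 1.59 and 0.59 (over all genes -0.02, -0.05 and -0.01). The medians are the same with XAF1, which had no untreated reads, at its bound.

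The immunoproteasome subunits PSMB9 and PSMB8 had the largest called differences of this list between versions with H11 and with IFNL3. With H11, PSMB9 averaged 311 CPM in optimized and 12.7 CPM in wild-type cells (log2 difference 4.62 ± 0.19, edgeR adjusted p = 1.62e-11), and with IFNL3 124 CPM and 15.5 CPM (3.0 ± 0.18, adjusted p = 5.33e-09). PSMB8 differed by 3.40 ± 0.14 with H11 and 2.54 ± 0.13 with IFNL3 (adjusted p = 9.49e-12 and 6.4e-10). Against untreated wild-type cells PSMB9 had log2 values of -0.01 ± 0.19 with H11 and 0.27 ± 0.19 with IFNL3, which did not pass, and 4.75 ± 0.19 with IFNw (adjusted p = 0.97, 0.27 and 6e-12).

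Other genes of this list were lower in optimized cells, as IRF1 was. With H11, TAPBP, a peptide-loading chaperone, was lower in optimized than in wild-type cells by a log2 difference of -2.88 ± 0.60 (0.662 and 5.04 CPM, edgeR adjusted p = 0.000619). With IFNL3, the checkpoint ligand gene CD274 differed by -2.23 ± 0.68 and the chemokine gene CCL2 by -1.34 ± 0.33 (adjusted p = 0.0176 and 0.00444). In all, 9 of the 17 tested genes were higher and 4 lower in optimized cells with H11 (median 0.43), and 6 higher and 4 lower with IFNL3 (median 0.52). Of all genes 25.6% were called higher and 26.1% lower with H11, and 18.1% higher and 15.1% lower with IFNL3.

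Of the 15 genes of the ISGF3 list, 14 rose with each ligand in optimized cells, and 13 rose with H11, 14 with IFNw and 13 with IFNL3 in wild-type cells. With genes of no untreated reads at their bound the medians were 7.81, 7.76 and 7.16 in optimized and 5.31, 7.85 and 5.30 in wild-type cells. Between versions 11 were higher and 2 lower with H11 (25.6% and 26.1% of all genes), and 8 higher and 3 lower with IFNL3 (18.1% and 15.1%). IFI44, for example, averaged 370 CPM in optimized and 21.0 CPM in wild-type cells with H11 (log2 difference 4.14 ± 0.16, edgeR adjusted p = 4.21e-11).

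In the pathway that TRAIL acts through, 7 of 12 listed receptors and death-signalling genes were tested. With H11 3 rose and 1 fell in optimized cells (17.2% and 15.2% of all genes) and none was called in wild-type cells. With IFNw 3 rose and 2 fell in optimized cells (17.5% and 15.9%) and 2 rose in wild-type cells (16.6%). With IFNL3 1 rose in optimized cells (7.26%) and none was called in wild-type cells. The medians were 0.59, 0.55 and 0.40 in optimized and 0.15, 0.01 and 0.18 in wild-type cells. The adaptor gene FADD averaged 67.2 CPM with H11 and 26.2 CPM untreated in optimized cells (1.35 ± 0.16, edgeR adjusted p = 8.55e-06), and the BH3-domain gene BID differed by 1.53 ± 0.30 (adjusted p = 0.000736). XIAP, an inhibitor of caspases, fell by 0.72 on the log2 scale (adjusted p = 0.00392). The TRAIL receptor gene TNFRSF10A rose by 0.97 ± 0.23 with H11 in optimized cells (adjusted p = 0.00327). Its wild-type value of 0.35 did not pass, and neither did the difference between these responses (0.62 ± 0.31, edgeR adjusted p = 0.133).

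NF-kappaB targets, another route by which IRF1 and CXCL10 are known to be induced, were also counted. Of 10 listed 5 were tested, and in optimized cells 2 rose and 1 fell with H11 (17.2% and 15.2% of all genes) and with IFNw (17.5% and 15.9%), and none was called with IFNL3. In wild-type cells 1 rose with H11 (18.2%), 2 rose and 1 fell with IFNw (16.6% and 14.8%), and 1 rose with IFNL3 (18.7%). A single gene of 5 is near the share of all genes called. The medians were -0.53, -0.33 and 0.15 in optimized and 0.45, 0.71 and 0.02 in wild-type cells. NFKBIA, an inhibitor of NF-kappaB, rose by 0.76 ± 0.16 with H11 and by 0.82 ± 0.16 with IFNL3 in wild-type cells (edgeR adjusted p = 0.00154 and 0.000848). With H11 it averaged 49.6 CPM in both receptor versions, unlike IRF1. In optimized cells it averaged 52.6 CPM with IFNw and 38.2 CPM with IFNL3, against 34.5 CPM untreated, so higher levels were not limited to type III ligands. Its response differences between versions were -0.23 with H11, -0.10 with IFNw and -0.67 with IFNL3, and none passed (edgeR adjusted p = 0.463, 0.959 and 0.0557).

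Of the family relatives, IRF2, known to bind the same elements as IRF1 and to oppose it, and IRF8 were tested. IRF2 rose with H11 and IFNw in optimized cells (0.83 ± 0.17 and 0.64 ± 0.17, edgeR adjusted p = 0.000929 and 0.00623) and with all 3 ligands in wild-type cells (0.47 to 0.77). Its value with IFNL3 in optimized cells, 0.45 ± 0.17, did not pass (adjusted p = 0.0784). IRF8 rose with H11 and IFNw in optimized cells, from 7 untreated reads (1.97 ± 0.72 and 2.05 ± 0.71, adjusted p = 0.0445 and 0.0339). Neither was called between receptor versions with any ligand.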

How the data were processed

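RNA from 16 HEK293 libraries (8 groups of 2, called biological replicates in the labels) was read on an Ion Torrent platform, per the labels' protocols. The deposited values are raw read counts, 1 target per gene and 1 library per file, on hg19 per the submitters' processing notes; no source used here names the aligner, the counter or the use of strand. The 10 spike-in rows with at most 1 read were left out, which left 20802 genes and 5331203 to 9822088 reads per library. Labels do not say that replicates came from separate cultures, so p-values measure the spread between these libraries, which may be technical.

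Counts were fitted with edgeR 4.0.16 (limma 3.58.1, R 4.3.3; filterByExpr, TMM factors, quasi-likelihood test, all 16 libraries, 1 coefficient per group), with Benjamini-Hochberg adjustment over 12704 genes and a threshold of 0.05 in each of 19 comparisons; the common dispersion of 0.0176 is a biological coefficient of variation of 13.3%. The fit was tested on simulated data. A group of 0 reads was set at 3 reads over the group for bounds. Folds over that limit use the reads counted in the ligand group, without their counting error. Alternatives were DESeq2 1.42.0, DESeq2 size factors, no filter on low counts, the replicate number as a block, only the groups compared, an offset for transcript length (a spline of 5 degrees of freedom, 95.5% of genes) and omission of each library; library totals were added after seeing the data. The genes and lists were chosen with earlier results of these data known. Every member is named, the 5 nearest genes of each tested one, and up to 4 called genes of each list and comparison by size; values of such genes in comparisons where they were not among the 4, or not called, were chosen after being seen. Of 92 list memberships 90 matched a target. Some list genes are counted but not reported here by name.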

Additional observations from a re-analysis of the deposited data

Results flagged for a closer look

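The response of IRF1 to IFNL3 differed between the receptor versions by the test of the difference itself, the log2 fold change in optimized cells minus that in wild-type cells being -1.1512 (edgeR's quasi-likelihood test, adjusted p = 0.0125). The optimized libraries stood at 7.94 and 7.81 CPM with IFNL3 and 4.89 and 4.03 CPM untreated, and the wild-type libraries at 20.9 and 22.2 CPM with IFNL3 and 5.86 and 5.28 CPM untreated. Groups of 2 libraries were too small to look for outlying libraries.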

How the results depend on the processing

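The 67 log2 results called, or of IRF1 or TNFSF10, gave 740 alternative values: 55 calls were lost, 3 appeared, and 16 values changed sign. One sign change was of a called value, CXCL10 in wild-type H11 cells at 0 without replicate 2, which held all its reads (0 to 6.04 without 1 library). The other 15 were values that had not passed: TNFSF10 with library totals in optimized against wild-type H11 (-0.16), IFNw against IFNL3 in optimized (-0.25) and wild-type cells (-0.24) and H11 against IFNw in wild-type cells (0.0197); IRF1 with library totals in optimized H11 against IFNL3 (-0.0324), IFNw against IFNL3 (-0.0399) and H11 against IFNw (0.0076). Omitting 1 library gave TNFSF10 ranges of -0.98 to 0.10 and -0.64 to 0.074 for optimized against wild-type with IFNw and IFNL3, -0.23 to 0.51 and -0.22 to 0.85 for IFNw against IFNL3 in optimized and wild-type cells, and -1.05 to 0.0227 for H11 against IFNw in wild-type cells, where it was called (adjusted p = 0.026) without wild-type IFNw replicate 1 (0.026 to 0.97 over 11 alternatives). IRF1 ranged from -0.14 to 0.12 for H11 against IFNw in optimized cells. Library totals put the median of all genes at -0.685 to 0.664 over the comparisons (-0.0624 to 0.0544 with TMM factors) and turned the share of higher calls, for example to 18.1% from 49.5% for optimized against wild-type H11 and to 71.8% from 47% for wild-type H11 against untreated.

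Counts of the 10 genes called changed with only the groups compared. Against untreated cells that fit's filter left fewer of them tested, and it called 2 for wild-type H11, 3 for wild-type IFNw, 2 for optimized IFNL3 and 2 for wild-type IFNL3, with IRF1 tested and not called in wild-type IFNw and optimized IFNL3. For H11 against IFNL3 in optimized cells it called 3, APOL6 and CXCL10 beside GBP1, and the cause was not tested. DESeq2 gave no adjusted p for CXCL10 and APOL1 in optimized IFNL3 against untreated, where it called 2, or for GBP1 in H11 and IFNw against IFNL3 in optimized cells, where it called 0 and 0. For the H11 response difference the count was 1 with library totals and 1 with the length offset. Omitting 1 library gave 3 to 5 for wild-type H11 and 2 to 4 for wild-type IFNL3 against untreated, 1 for optimized against wild-type IFNL3, 0 to 1 for the IFNL3 response difference and 1 to 3 for H11 against IFNw in wild-type cells. With the replicate block the count for H11 against IFNL3 in optimized cells was 2, APOL6 (2.27, adjusted p = 0.0462) beside GBP1, and no other count of these genes moved by over 1.5 times. Same-numbered libraries correlated at 0.0846 to 0.212 over 28 pairs of groups (27 over 0.1), and the labels share only a number.

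Over all genes, only the groups compared gave 2021 (4116 in the fit of all groups) for optimized H11, 2052 (4247) for optimized IFNw, 227 (1690) for optimized IFNL3 and 1538 (2338) for the IFNL3 response difference. No filter gave 50 for untreated versions, 15 for the IFNw response difference and 1 for wild-type H11 against IFNL3, each 0 with the filter, and library totals gave 3820 (2232) and 4201 (2422) for H11 and IFNw against IFNL3 in optimized cells. Omitting 1 library gave at least 680 (without optimized IFNL3 replicate 1) and up to 3127 (without optimized untreated replicate 1) for optimized IFNL3, 2630 (3989) without wild-type IFNw replicate 2, and 1046 to 1213 and 1243 to 1510 for H11 and IFNw against IFNL3 in optimized cells. It gave 2807 (4220) for optimized against wild-type IFNL3 without wild-type IFNL3 replicate 1, and 1508 and 1547 for the IFNL3 response difference without wild-type IFNL3 replicate 2 and optimized IFNL3 replicate 1. Without optimized untreated replicate 1, 1280 genes were called between untreated versions and 761 for the IFNw response difference. Read depth limits CXCL11, GBP2, GBP3 and APOL2, for which no call was made without the filter.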
